A study of Mus musculus with 14 samples.

Results

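The step from embryonic day 14 (E14) to embryonic day 16 (E16) of mouse lung development was described from 2 arrays of whole lung at E16 and 2 arrays at E14, 4 of the 14 arrays of a time course with 7 time points. Arrays were chosen by time point alone. The series followed gene expression through lung formation, and this comparison was chosen for the onset of distal differentiation. Genes of secretory and ciliated airway cells rose in it as well, as described below. E16 lungs came from embryonic day 16 ICR mice and E14 lungs from embryonic day 14 ICR mice, with the day of the plug as day 0. All 4 arrays carry the label female, and neither group received an agent or carried an altered allele. RNA was taken from pooled whole lungs, so an array averages all cell types of several lungs, and the size of a pool was not given in the sources used here. Nothing in the labels says whether the 2 arrays of a time point came from separate pools, so p-values measure only the spread between arrays.

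In this interval the mouse lung is late in the pseudoglandular stage, in which epithelial tubes branch repeatedly into mesenchyme and lay down the airway tree. Cells at the distal tips are kept as progenitors by FGF10 from the mesenchyme and by Wnt, BMP and hedgehog signals exchanged between both layers. Cells left behind by the tips become secretory and ciliated cells in the airways. In the distal lung they become flat alveolar type I cells, which form the gas exchange surface, and cuboidal alveolar type II cells, which make surfactant.

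Values are log2 signals as deposited, so a difference of 1 is a 2-fold change, and each gene was read from 1 probe set, the one with the highest mean over all 14 arrays. A gene was called higher or lower at E16 when the adjusted p of limma's moderated test was under 0.05. Of 10427 genes with a mean above 7 at E16 or E14, 1320 were higher at E16 (12.7%) and 1734 were lower (16.6%). The counts were 792 and 821 without E16 replicate 1, 757 and 739 without E14 replicate 1, and 1003 and 1149 without E14 replicate 2. After quantile normalization 1559 were higher and 1340 lower, so the balance between directions changed with the scaling. With a difference above 1.2 as well, 208 genes were higher (1.99%) and 50 lower (0.48%), and among 45037 probe sets 318 were higher (0.706%) and 104 lower (0.231%). Values at E16 and E14 did not overlap in 7772 of the 10427 genes, nor in any of the 3054 called genes. A lack of overlap, where described below, therefore adds nothing to a call. A gene that is low at E14 passes the level threshold only through E16, so gene lists were counted over all members on the array at any level. The lists were chosen with earlier results of these data known, so their counts are descriptions, and no set test was run. The background for these counts was 9.95% higher and 10.6% lower among all 18193 genes, whose median difference was 0.0069. That background holds many genes of low signal. Lists whose members mostly had a mean above 7, such as the 45 cell cycle and 31 elastic fibre genes, are nearer to the 10427 genes. There 12.7% were higher and 16.6% lower, with a median difference of -0.0474. Where the count of a list moved by more than 1.5 times when an array was left out, the count without that array stands in brackets.

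The 4 arrays differed within time points. The replicates correlated at 0.995 at E16 and 0.997 at E14. At E16, 41 genes lay more than 1 apart between replicates, against 4 at E14, and heart muscle genes were far higher on E16 replicate 1, as described below. The Y-linked gene Eif2s3y read 7.14 and 3.13 at E16, against 6.95 and 7.02 at E14, and the Y-linked Kdm5d read 6.71 and 3.49 at E16, against 6.66 and 6.70 at E14. The X-inactivation transcript Xist read 12.78 and 13.32 at E16, against 12.73 and 12.83 at E14. Thus both E14 arrays and E16 replicate 1 held signal of Y-linked genes beside Xist despite the label female, while E16 replicate 2 was far lower in Eif2s3y and Kdm5d. Within E14, replicate 2 had the higher value in 18 of 22 type II cell genes, with a median gap of 0.24, and in 9 of 31 mesenchymal transcription factors, with a median gap of -0.14, so in both lists it lay nearer to E16. Other lists differed. In ciliated cell genes, which rose at E16, E14 replicate 2 was higher in 8 of 23, with a median gap of -0.02. In glycolysis and hypoxia genes, with a median change at E16 of -0.02, it was higher in 21 of 25. The part of these differences in the results was not tested. Both replicates are given for most genes that are described, and only the difference or the name for the rest. Control probe sets for the 3' end less those for the 5' end of Gapdh gave -0.169 and -0.037 at E16 and -0.118 and -0.098 at E14. A difference passed without E16 replicate 1 for Eif2s3y and Kdm5d.

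The tissue label was checked on lung and liver genes. Nkx2-1, the transcription factor that defines lung epithelium, read 7.85 and 8.02 at E16, against 7.75 and 7.77 at E14, and did not pass the test (adjusted p = 0.642). Alb, the serum albumin of liver, read 5.90 and 5.82 at E16, against 5.43 and 5.80 at E14, and each of 16 liver genes stayed below a mean of 7 at both time points, as did each of 11 oesophagus and foregut genes.

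The 20 largest rises included genes of type II cells, type I cells, club cells, ciliated cells and heart muscle. Slc34a2, the sodium-phosphate cotransporter of type II cells, read 10.18 and 9.81 at E16, against 6.06 and 6.35 at E14. Its signal was 13.9-fold higher, with a difference of 3.79 (SE 0.13, adjusted p = 5.14e-09). Dynlrb2, a dynein light chain found in motile cilia, read 9.38 and 9.36 at E16, against 5.27 and 5.03 at E14, and was 18.6-fold higher, with a difference of 4.22 (SE 0.16, adjusted p = 7.99e-09). In both genes the E16 arrays lay far above the E14 arrays and close to each other. Hsd11b1, which regenerates active glucocorticoid from its inactive form, read 10.15 and 9.89 at E16, against 7.01 and 6.86 at E14, with a difference of 3.08 (SE 0.11, adjusted p = 5.14e-09). Il18r1, a subunit of the interleukin 18 receptor, read 8.50 and 8.23 at E16, against 4.72 and 5.15 at E14. Higd1b read 7.88 and 7.67 at E16, against 4.12 and 4.73 at E14. Tc2n read 7.53 and 7.11 at E16, against 4.29 and 4.39 at E14. These 3 rose by 3.43, 3.35 and 2.98.

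The 20 largest falls included embryonic globins and the Wnt activator Rspo2. Hba-x, the embryonic zeta globin, read 7.64 and 8.33 at E16, against 11.47 and 11.27 at E14, and was 10.5-fold lower, with a difference of -3.39 (SE 0.21, adjusted p = 3.44e-07). Rspo2, a secreted activator of Wnt signalling made by lung mesenchyme, read 6.46 and 6.70 at E16, against 9.32 and 8.93 at E14, with a difference of -2.55 (SE 0.23, adjusted p = 9.00e-06), and 1 of its 2 probe sets was called. Both were low on both E16 arrays. Dcx, a microtubule protein of migrating neurons, read 5.5 and 5.87 at E16, against 7.80 and 7.62 at E14. Lin7a, a scaffold protein of cell junctions, read 7.38 and 7.58 at E16, against 9.26 and 9.23 at E14. Pappa, a protease that cuts IGF-binding proteins, read 6.43 and 6.44 at E16, against 7.97 and 7.72 at E14, and the related Pappa2 read 6.31 and 6.26 at E16, against 7.78 and 7.63 at E14. The other genes among the 20 largest falls that belong to no list below, Adamts20, Col26a1, Tenm3, Igsf9, Slitrk6, Akr1c19 and Thsd4, fell by between 1.42 (Thsd4) and 1.98 (Adamts20). Of these, Akr1c19 read 6.44 and 5.52 at E16, against 7.14 and 7.81 at E14.

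**Figure D1:**
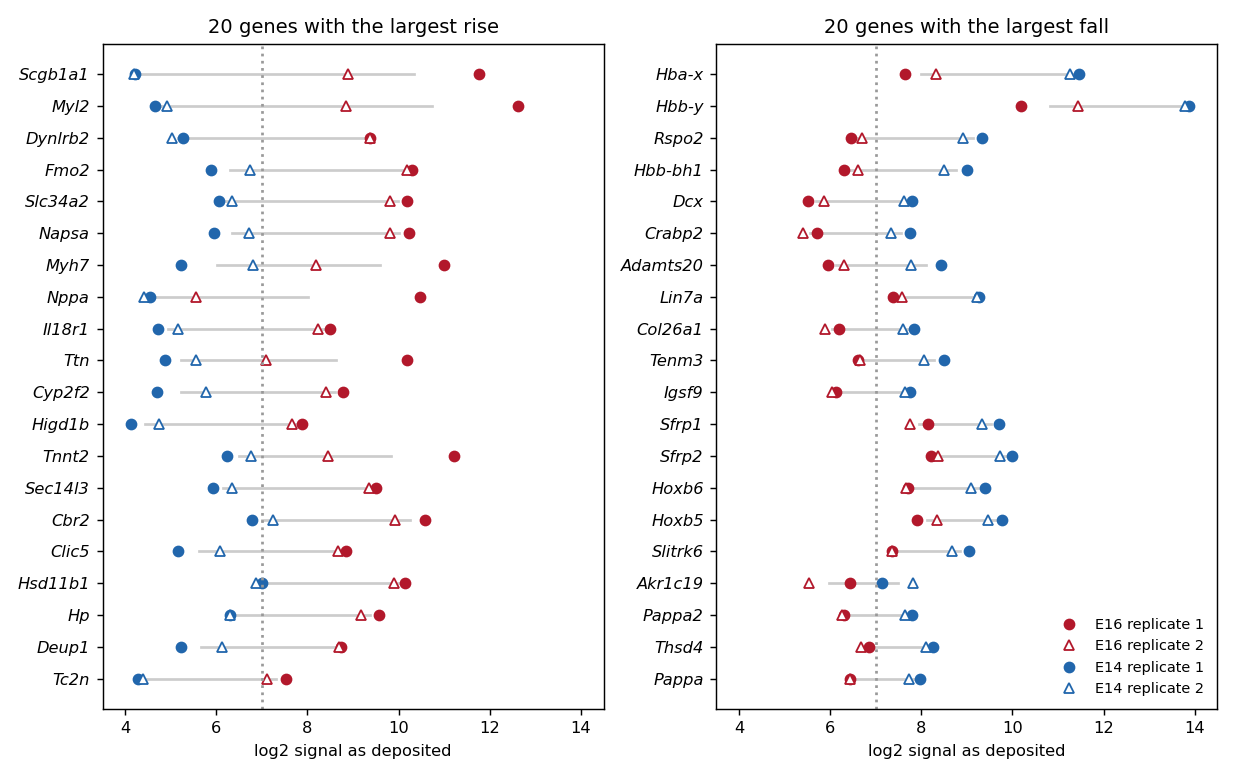
Log2 signal (horizontal axis) of the 20 genes with the largest rise (left) and the 20 with the largest fall (right) at E16 relative to E14. Filled circles are replicate 1 and open triangles replicate 2, in red for E16 and blue for E14, grey bars join the time-point means, and the dotted line is the level threshold of 7. The E16 replicates lay close together in Dynlrb2, at 9.38 and 9.36, and far apart in Myl2, at 12.63 and 8.84.

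Promoters were read from RefSeq (GRCm38.p6), from 250 bases before to 50 bases after the annotated start. They are shown for 3 genes that lead the type II cell, hormone and globin results. Capitals mark the match, on either strand, to the C/EBP pattern TTGCNNAA in Slc34a2, to the forkhead pattern TGTTTAC in Hsd11b1 and to the TATA box TATAAA in Hba-x.
Slc34a2: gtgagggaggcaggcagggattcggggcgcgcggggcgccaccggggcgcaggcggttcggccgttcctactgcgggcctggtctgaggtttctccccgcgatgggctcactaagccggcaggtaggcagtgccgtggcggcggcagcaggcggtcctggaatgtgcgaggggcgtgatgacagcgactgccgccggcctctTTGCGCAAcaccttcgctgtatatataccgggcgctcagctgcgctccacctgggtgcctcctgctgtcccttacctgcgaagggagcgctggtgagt
Hsd11b1: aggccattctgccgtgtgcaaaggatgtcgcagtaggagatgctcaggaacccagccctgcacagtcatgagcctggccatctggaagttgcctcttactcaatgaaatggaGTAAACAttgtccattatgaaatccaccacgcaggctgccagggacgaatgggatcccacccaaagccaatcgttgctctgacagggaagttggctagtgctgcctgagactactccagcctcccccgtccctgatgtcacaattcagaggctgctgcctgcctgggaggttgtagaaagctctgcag
Hba-x: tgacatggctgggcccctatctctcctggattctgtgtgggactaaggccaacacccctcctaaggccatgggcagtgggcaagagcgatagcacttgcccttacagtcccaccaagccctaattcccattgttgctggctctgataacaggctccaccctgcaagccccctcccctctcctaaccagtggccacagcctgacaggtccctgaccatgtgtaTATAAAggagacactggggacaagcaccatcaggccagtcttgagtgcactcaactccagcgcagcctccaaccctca
The windows are chr5:53049103-53049402 on the plus strand, chr1:193242311-193242610 on the minus strand and chr11:32276350-32276649 on the plus strand. Of the 20 genes with the largest rise, 16 had a promoter in the table, and of the 20 with the largest fall, 12 had one. TTGCNNAA was held by 3 of the promoters of genes that rose, 2 of those that fell and 10.8% of all 32851 promoters of that length. CTCAAG, the core bound by NKX2-1, was held by 5, 1 and 15.9% in the same order. The 5 were the promoters of Dynlrb2, Il18r1 and the heart muscle genes Myh7, Nppa and Tnnt2. Nppa was also 1 of the 3 that rose and held TTGCNNAA. TGTTTAC was held by 1, 0 and 3.65%, and TATAAA by 1, 2 and 13.6%. The E2F patterns TTTGGCGC and TTTCCCGC were in 0 of either set and in 0.514% and 1.07% of all promoters. A match describes letters and not a bound site.

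Surfactant and type II cell genes were higher in 17 of 22 and lower in 1 (2 without E16 replicate 1), with a median difference of 1.47. Sftpb, a surfactant protein that spreads lipid at the air surface, read 11.17 and 10.71 at E16, against 7.99 and 8.42 at E14, with a difference of 2.73 (SE 0.19, adjusted p = 9.23e-07). Sftpa1, a collectin of surfactant, read 10.10 and 9.79 at E16, against 6.72 and 7.37 at E14. Sftpc, the hydrophobic surfactant protein restricted to distal epithelium, read 14.34 and 14.30 at E16, against 12.69 and 13.38 at E14, and rose by 1.29 from a level already high at E14. Sftpd, the other collectin, read 7.46 and 6.72 at E16, against 6.37 and 6.56 at E14, with E16 replicate 2 close to E14. Enzymes that process the protein precursors rose too, with Napsa, napsin A, at 10.22 and 9.81 at E16, against 5.94 and 6.72 at E14. Ctsh, cathepsin H, read 12.21 and 12.14 at E16, against 8.96 and 9.58 at E14. Among lipid genes, Abca3, which loads lipid into lamellar bodies, read 9.68 and 9.49 at E16, against 8.16 and 8.33 at E14. Lpcat1, which makes the main surfactant phospholipid, read 11.44 and 11.50 at E16, against 10.83 and 10.93 at E14. Cebpa, a transcription factor of type II cell maturation, read 8.88 and 8.95 at E16, against 7.32 and 7.64 at E14. Each of these genes was higher on both E16 arrays than on either E14 array, by least in Sftpd. Kcnj15, a potassium channel, rose by 2.38, and Muc1, a membrane mucin, by 1.31. Etv5, an FGF-responsive factor of tip and type II cells, read 10.39 and 10.28 at E16, against 10.91 and 10.99 at E14, and fell by 0.61. Lyz1 and Lyz2 rose by 1.87 and 1.86. They are near-identical copies, 1 of the 3 Lyz1 probe sets was called lower, and Lyz2 is also made by macrophages. In bulk RNA, fewer cells of a type and less RNA per cell cannot be told apart, here and in the results that follow. Calls were lost without E16 replicate 1, E14 replicate 1 or E14 replicate 2 for Sftpd. The difference in Sftpd was 0.26 without E16 replicate 1 and 1.0 without E16 replicate 2.

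Type I cell genes were higher in 14 of 20 and lower in 1 (0 without any 1 of the 4 arrays), with a median of 0.90. Hopx, a homeodomain protein of type I cells, read 11.93 and 11.46 at E16, against 8.71 and 8.82 at E14, with a difference of 2.93 (SE 0.13, adjusted p = 3.18e-08). Ager, the receptor for advanced glycation end products, read 11.67 and 11.48 at E16, against 9.06 and 9.37 at E14, with a difference of 2.36 (SE 0.13, adjusted p = 1.26e-07). Clic5, an intracellular chloride channel protein, read 8.84 and 8.66 at E16, against 5.15 and 6.08 at E14. All E16 values of these genes lay more than 2 above all E14 values. Sec14l3, a lipid-binding protein, read 9.51 and 9.34 at E16, against 5.94 and 6.35 at E14. Pdpn, podoplanin of the type I cell surface, read 10.24 and 10.13 at E16, against 9.34 and 9.33 at E14. Emp2, a membrane protein of type I cells, rose by 1.70, and the caveolins Cav1 and Cav2 by 0.92 and 1.38. The water channel Aqp5, a marker of later type I cells, read 6.6 and 5.41 at E16, against 5.59 and 5.58 at E14, and did not pass (adjusted p = 0.312). The lower gene, Rtkn2, read 6.0 and 5.99 at E16, against 6.32 and 6.33 at E14. The test was not passed without any 1 of the 4 arrays for Rtkn2. A difference passed without E16 replicate 2 for Aqp5.

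Secretory airway genes were higher in 13 of 20 and lower in 0 by limma's test (0 at an unadjusted p under 0.05), with a median of 1.02. Scgb1a1, the club cell secretoglobin, read 11.77 and 8.90 at E16, against 4.21 and 4.19 at E14. It was 70.3-fold higher, with a difference of 6.13 (SE 0.64, adjusted p = 3.08e-05). That SE assumes the same spread at all 7 time points, while the standard deviation was 2.03 at E16 and 0.015 at E14. The difference was 4.70 without E16 replicate 1 and 7.57 without E16 replicate 2. The E16 arrays lay 2.87 apart, and at E12 it read 9.59 and 8.10, above E14. Scgb3a2, another secretoglobin, read 12.73 and 12.70 at E16, against 9.69 and 10.35 at E14, with close E16 replicates. Cyp2f2, a cytochrome P450 of club cells, read 8.79 and 8.41 at E16, against 4.70 and 5.76 at E14. Fmo2, a flavin monooxygenase, read 10.29 and 10.18 at E16, against 5.87 and 6.74 at E14, and rose in all 5 of its probe sets. Cbr2, a carbonyl reductase of lung, read 10.58 and 9.93 at E16, against 6.77 and 7.25 at E14, and Hp, haptoglobin, read 9.56 and 9.18 at E16, against 6.31 and 6.29 at E14. No value of these 4 genes overlapped between time points. Bpifa1 and Muc5b, which mature secretory cells make, had differences of 0.49 and 0.26 and did not pass. A difference passed without E16 replicate 2 for Bpifa1.

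Ciliated cell genes were higher in 17 of 23 and lower in 0 by limma's test (0 at an unadjusted p under 0.05), with a median of 1.17, and 13 of the 23 stayed below a mean of 7 at both time points. Among regulators, Myb, which promotes the entry into the multiciliated fate, read 9.20 and 9.14 at E16, against 7.67 and 7.90 at E14. Ccno, needed for centriole amplification, read 7.58 and 7.5 at E16, against 6.10 and 6.31 at E14. Foxj1, the factor that switches on motile cilium genes, read 7.04 and 7.11 at E16, against 6.04 and 5.78 at E14, with a difference of 1.17 (SE 0.19, adjusted p = 9.37e-04). Each was higher on both E16 arrays. Deup1, which builds the deuterosome on which centrioles multiply, read 8.73 and 8.69 at E16, against 5.22 and 6.12 at E14, with a difference of 3.04 (SE 0.23, adjusted p = 2.65e-06). Of the axoneme, the radial spoke gene Rsph1 read 8.07 and 7.94 at E16, against 6.07 and 6.02 at E14, and the tektin Tekt4 read 7.16 and 7.10 at E16, against 5.55 and 5.40 at E14. The transcription factors Rfx2 and Rfx3 and the dynein chain Dnah5 had differences of 0.28, 0.16 and 0.17 and did not pass.

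**Figure D2:**
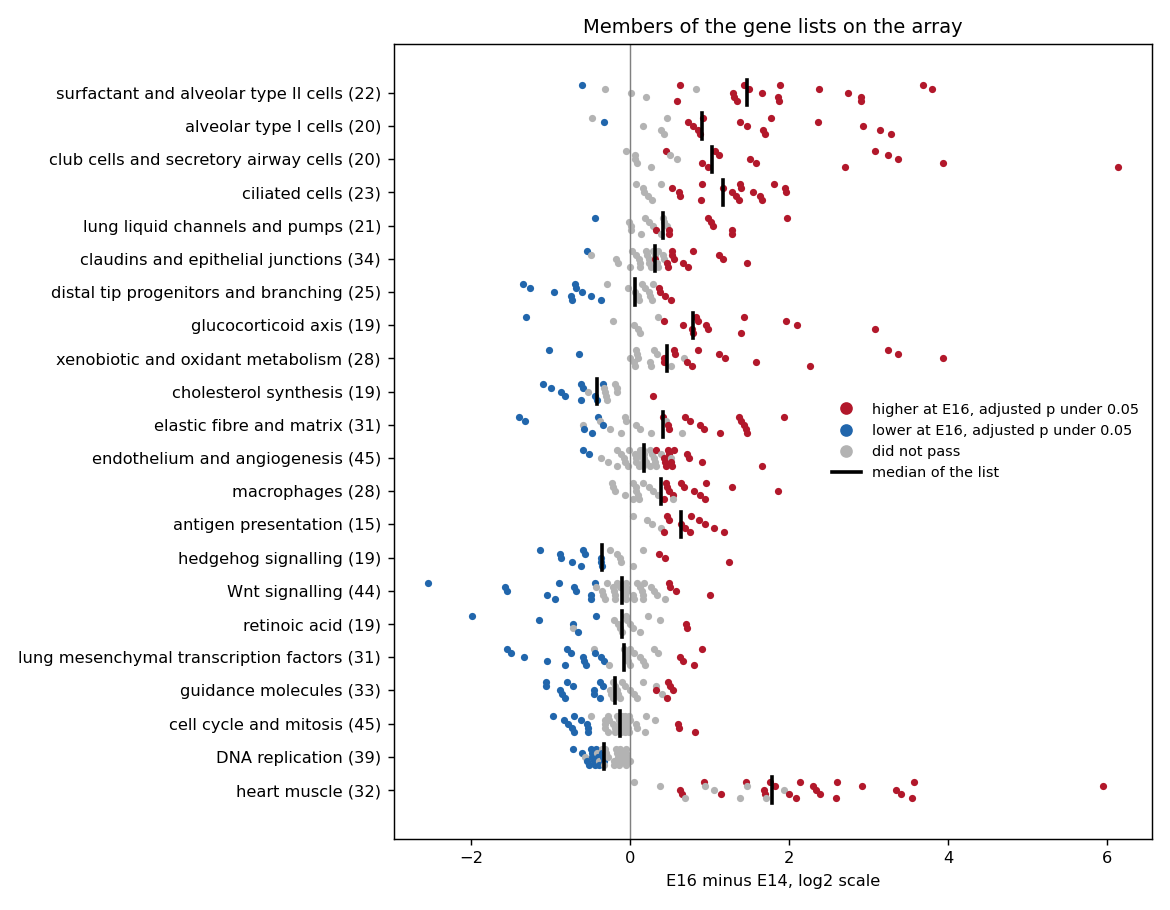
Difference in log2 signal, E16 minus E14 (horizontal axis), of each member of 22 gene lists (number of members on the array in brackets), in red where higher and in blue where lower at an adjusted p under 0.05 and in grey otherwise. Black bars are list medians, 1.47 for type II cell genes, 1.17 for ciliated cell genes and -0.33 for DNA replication genes.

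Of 13 basal cell genes and keratins 4 were higher and 1 lower. The 4 were Krt8, Krt18, Krt19 and Krt15, of which the first 3 are keratins of simple epithelium in general. Krt19 read 11.10 and 10.83 at E16, against 9.01 and 9.21 at E14. Trp63, which defines basal cells, read 5.01 and 4.95 at E16, against 5.11 and 5.04 at E14, and did not pass. The neurotrophin receptor Ngfr read 5.55 and 5.20 at E16, against 6.82 and 6.35 at E14, and fell by 1.21. Of 14 neuroendocrine genes, 12 stayed below a mean of 7, Ddc was higher by 0.29 (0.08 as the mean of its probe sets, adjusted p = 0.584) and the ubiquitin hydrolase Uchl1, at 7.30 and 7.51 at E16, against 8.51 and 8.57 at E14, was lower. An adjusted p over 0.05 was found without E16 replicate 1 or E14 replicate 1 for Krt15, and without any 1 of the 4 arrays for Ddc.

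Of 25 genes of distal tip progenitors and branching 10 were lower and 4 higher (1 without E16 replicate 1, 2 without E16 replicate 2 and 0 without E14 replicate 1). Sox9, which marks the tip epithelium and also cartilage, read 7.66 and 8.01 at E16, against 8.70 and 8.47 at E14, with a difference of -0.75 (SE 0.19, adjusted p = 0.0165), and 1 of its 3 probe sets was called. Mycn, a proliferation factor of the tip, read 8.04 and 8.56 at E16, against 9.27 and 9.26 at E14. The embryonic chromatin protein Hmga2 read 8.99 and 9.14 at E16, against 10.53 and 10.30 at E14, with a difference of -1.35 (SE 0.11, adjusted p = 5.62e-06). Sox11, a factor of embryonic progenitors, read 8.97 and 9.38 at E16, against 10.60 and 10.29 at E14. In these genes no E16 value reached an E14 value. Shh, the hedgehog ligand of the epithelium, read 11.41 and 11.52 at E16, against 11.10 and 11.10 at E14, and rose by 0.37 (0.24 as the mean of its probe sets, adjusted p = 0.301). Id2, a tip marker, read 12.07 and 12.10 at E16, against 11.62 and 11.79 at E14, with 2 of its 3 probe sets called higher and 1 lower. The other rises were of Dusp6 and Hhip, by 0.52 and 0.44. Fgf10 and Bmp4, the signals of tip mesenchyme and tip epithelium, had differences of -0.03 and 0.10 and did not pass. The call was lost without E16 replicate 1 or E14 replicate 1 for Sox9 and Dusp6, and without any 1 of the 4 arrays for Shh, and without E16 replicate 1, E16 replicate 2 or E14 replicate 1 for Id2, and without E14 replicate 1 for Hhip.

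Of 31 epithelial transcription factors 9 were higher and 4 lower (0 without E16 replicate 1, 2 without E16 replicate 2, 0 without E14 replicate 1 and 2 without E14 replicate 2). The ETS factor Elf5 read 9.99 and 9.96 at E16, against 7.71 and 8.20 at E14, with a difference of 2.02 (SE 0.21, adjusted p = 3.19e-05). Klf5, a factor of airway and alveolar epithelium, read 9.27 and 9.25 at E16, against 7.94 and 8.09 at E14. The C/EBP factor Cebpb read 10.67 and 10.52 at E16, against 9.46 and 9.57 at E14, and Cebpd rose by 0.96. Sox2, the factor of the proximal airway, read 7.09 and 7.5 at E16, against 8.54 and 8.17 at E14, and fell by 1.06. Foxa1, Foxa2 and Gata6, which keep lung epithelial fate, had differences of 0.04, -0.14 and 0.08 and did not pass. Calls were lost without E16 replicate 1 or E14 replicate 1 for Cebpd and Sox2.

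Epithelial junction genes were higher in 12 of 34 (7 without E16 replicate 1) and lower in 1 (0 without E16 replicate 1, 0 without E14 replicate 1 and 0 without E14 replicate 2). Cldn18, the claudin of alveolar epithelium, read 11.86 and 11.77 at E16, against 10.16 and 10.53 at E14. Cldn1 read 8.17 and 8.09 at E16, against 7.00 and 6.92 at E14. Cdh1, E-cadherin, rose by 0.66, while the pan-epithelial Epcam had a difference of 0.12 and did not pass. Cldn6, a claudin of embryonic epithelium, read 10.18 and 10.28 at E16, against 10.74 and 10.81 at E14. The test was not passed without E16 replicate 1, E14 replicate 1 or E14 replicate 2 for Cldn6.

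Of 21 genes of lung liquid transport 9 were higher and 1 lower (0 without E16 replicate 2 and 0 without E14 replicate 2). Atp1b1, the beta subunit of the sodium pump, read 11.17 and 11.06 at E16, against 9.14 and 9.14 at E14, with a difference of 1.98 (SE 0.11, adjusted p = 1.34e-07). Slc12a2, the cotransporter that supplies chloride for secretion into the fetal lumen, read 12.52 and 12.56 at E16, against 11.46 and 11.60 at E14. Nedd4l, a ubiquitin ligase of the epithelial sodium channel, read 9.58 and 9.46 at E16, against 8.22 and 8.26 at E14. Each was higher on both E16 arrays. Of the subunits of that channel Scnn1g rose by 0.49, and Scnn1a and Scnn1b had differences of 0.46 and 0.40 and did not pass. The chloride channel Cftr read 7.98 and 7.91 at E16, against 7.76 and 7.76 at E14, and did not pass. The 1 lower gene was Clcn2, by 0.44. An adjusted p over 0.05 was found without E16 replicate 1, E16 replicate 2 or E14 replicate 1 for Scnn1g, and without E16 replicate 2 or E14 replicate 2 for Clcn2. A difference passed without E14 replicate 1 for Scnn1a, and without E14 replicate 2 for Scnn1b.

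Genes of the glucocorticoid axis, the hormone pathway that matures the fetal lung, were higher in 13 of 19 and lower in 1, with a median of 0.79. The enzymes of local hormone supply moved in opposite directions. Beside the rise of Hsd11b1, given above, Hsd11b2, which inactivates the hormone, read 6.77 and 6.50 at E16, against 8.28 and 7.61 at E14, with a difference of -1.31 (SE 0.20, adjusted p = 6.59e-04). Crh, corticotropin-releasing hormone, read 9.96 and 10.09 at E16, against 7.62 and 8.52 at E14, with a difference of 1.96 (SE 0.24, adjusted p = 1.06e-04). Nr3c1, the receptor, read 10.86 and 10.73 at E16, against 9.95 and 10.06 at E14. Among genes that the receptor is known to induce, Zbtb16 read 8.04 and 7.67 at E16, against 5.74 and 5.78 at E14. Klf9 read 10.11 and 9.84 at E16, against 8.58 and 8.51 at E14. Per1, also a clock gene, read 8.64 and 8.48 at E16, against 6.97 and 7.38 at E14. In these genes both E16 arrays lay above both E14 arrays. Tsc22d3 rose by 0.66 and Fkbp5 by 0.42. Of 17 clock genes 4 were higher (2 without E16 replicate 1), among them Per2, by 1.04, while the clock outputs Dbp and Nr1d1 had differences of 0.23 and -0.11 and did not pass. The call was lost without E14 replicate 1 for Tsc22d3, and without E16 replicate 1, E14 replicate 1 or E14 replicate 2 for Fkbp5.

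Of 19 cholesterol synthesis genes 10 were lower (6 without E14 replicate 1) and 1 higher (0 without any 1 of the 4 arrays), with a median of -0.43. Dhcr7, the last enzyme of the pathway, read 7.86 and 7.79 at E16, against 8.94 and 8.90 at E14, with a difference of -1.10 (SE 0.10, adjusted p = 1.34e-05). Cyp51, a demethylase, read 8.02 and 8.35 at E16, against 9.31 and 9.07 at E14, and Sqle, squalene epoxidase, read 9.5 and 9.72 at E16, against 10.47 and 10.40 at E14. The 1 rise, of Ebp, was by 0.29. Of 26 genes of fatty acid and phospholipid synthesis 9 were higher (3 without E16 replicate 1 and 2 without E14 replicate 1) and 3 lower. The rises included Lpcat1, given above, Gpam, which starts glycerolipid synthesis, at 10.72 and 10.67 at E16, against 10.15 and 10.19 at E14, and Agpat2, by 0.45. The falls were of Elovl6 at 8.65 and 8.79 at E16, against 9.90 and 9.55 at E14, Acaca at 8.67 and 8.57 at E16, against 9.26 and 9.14 at E14, and Fasn by 0.45, which make and lengthen fatty acids. Calls were lost without any 1 of the 4 arrays for Ebp, and without E16 replicate 1 or E14 replicate 1 for Agpat2, and without E16 replicate 1, E16 replicate 2 or E14 replicate 1 for Fasn.

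Of 28 genes of xenobiotic and oxidant metabolism 14 were higher and 2 lower (1 without E14 replicate 1). Beside the club cell enzymes, Fmo1 read 8.94 and 8.73 at E16, against 6.4 and 6.76 at E14. Ephx1, an epoxide hydrolase, read 7.72 and 7.23 at E16, against 6.11 and 6.45 at E14. Gpx2, an epithelial glutathione peroxidase, read 8.04 and 7.80 at E16, against 9.06 and 8.82 at E14, and fell by 1.02. The superoxide dismutases Sod1 and Sod2 had differences of 0.10 and 0.07 and did not pass. Of 25 glycolysis and hypoxia genes 5 were higher (3 without E16 replicate 1 and 3 without E14 replicate 1) and 4 lower. The shares over the 10427 genes with a mean above 7 were 12.7% higher and 16.6% lower. Epas1, the hypoxia factor of endothelium and type II cells, read 10.51 and 10.16 at E16, against 9.28 and 9.44 at E14, and Hk2, hexokinase, read 8.85 and 8.89 at E16, against 9.64 and 9.49 at E14.

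Of 19 hedgehog pathway genes 10 were lower (6 without E16 replicate 1, 6 without E16 replicate 2 and 5 without E14 replicate 1) and 3 higher (1 without E14 replicate 1). The transcription factors that carry the signal in mesenchyme fell. Gli2 read 8.38 and 8.49 at E16, against 9.78 and 9.35 at E14, Gli3 read 8.89 and 8.99 at E16, against 10.04 and 9.61 at E14, and Gli1, also a target of the pathway, read 8.34 and 8.32 at E16, against 9.14 and 8.99 at E14. The receptor Ptch1 fell by 0.37. Scube2, which helps release the ligand, read 7.47 and 7.46 at E16, against 6.17 and 6.29 at E14, and rose by 1.24. The test was not passed without any 1 of the 4 arrays for Ptch1.

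Of 44 Wnt pathway genes 11 were lower and 4 higher. Beside Rspo2, the secreted modulators Sfrp1, at 8.14 and 7.76 at E16, against 9.71 and 9.33 at E14, and Sfrp2, at 8.22 and 8.37 at E16, against 9.98 and 9.72 at E14, fell. The receptor Ror1 read 8.91 and 8.84 at E16, against 9.95 and 9.90 at E14. Lef1, a nuclear effector, read 7.61 and 7.52 at E16, against 8.11 and 8.45 at E14, and the pathway target Axin2 fell by 0.50. Both layers of the lung make ligands of the pathway. Wnt7b of the epithelium read 8.73 and 8.87 at E16, against 9.51 and 9.47 at E14, and Wnt2 of the mesenchyme read 10.44 and 10.51 at E16, against 10.71 and 10.63 at E14, and did not pass. Wif1, a secreted inhibitor, read 7.33 and 7.37 at E16, against 6.04 and 6.65 at E14, and rose by 1.0. Of 19 retinoic acid genes 5 were lower (3 without E14 replicate 1) and 2 higher. Aldh1a2, which makes retinoic acid in lung mesoderm, read 7.93 and 8.21 at E16, against 9.26 and 9.17 at E14. The binding protein Crabp2 read 5.71 and 5.40 at E16, against 7.76 and 7.33 at E14, and the receptor Rarb read 7.78 and 7.92 at E16, against 8.72 and 8.42 at E14. An adjusted p over 0.05 was found without E14 replicate 2 for Lef1, and without E16 replicate 1, E14 replicate 1 or E14 replicate 2 for Axin2.

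Of 22 FGF pathway genes 6 were higher and 3 lower. The ligand Fgf1 read 9.42 and 9.10 at E16, against 7.33 and 7.68 at E14, with a difference of 1.76 (SE 0.14, adjusted p = 4.53e-06). Fgf7, made by mesenchyme, read 8.55 and 8.51 at E16, against 6.76 and 7.23 at E14, with a difference of 1.53 (SE 0.14, adjusted p = 1.25e-05). Fgf18 read 8.06 and 8.02 at E16, against 7.11 and 7.17 at E14. All 3 ligands were higher on both E16 arrays. Il17rd and Spred2, inhibitors of the pathway, fell by 0.62 and 0.59. Of 46 TGF-beta and BMP genes 8 were higher (4 without E16 replicate 1, 5 without E16 replicate 2, 2 without E14 replicate 1 and 5 without E14 replicate 2) and 4 lower. Among the 10427 genes with a mean above 7 the shares were 12.7% higher and 16.6% lower. The latent binding protein Ltbp2 read 8.53 and 8.44 at E16, against 6.94 and 7.24 at E14, the ligand Tgfb3 read 8.13 and 8.28 at E16, against 9.0 and 9.07 at E14, and the receptor Bmpr1b read 6.81 and 6.99 at E16, against 7.80 and 7.89 at E14. Of 25 Notch genes 6 were higher (1 without E16 replicate 1, 0 without E14 replicate 1 and 3 without E14 replicate 2) and 1 lower (0 without E16 replicate 1, 0 without E14 replicate 1 and 0 without E14 replicate 2), or 2 and 0 with only the 4 arrays of E16 and E14 in the fit, with the largest rise, of the target Hey2, at 0.64. The call was lost without E16 replicate 1 or E14 replicate 1 for Spred2 and Hey2.

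Of 31 lung mesenchymal transcription factors 13 were lower (8 without E16 replicate 1 and 7 without E14 replicate 1) and 4 higher (2 without E16 replicate 1 and 2 without E14 replicate 1). The higher genes were Tcf21, Klf2, Klf4 and Nkx2-5, and Nkx2-5 is also on the heart list. Of the 13, 7 were Hox genes, which pattern the mesenchyme along the body axis. Hoxb6 read 7.71 and 7.67 at E16, against 9.39 and 9.10 at E14, and Hoxb5 read 7.91 and 8.33 at E16, against 9.78 and 9.47 at E14. Hoxa5, required for airway patterning, fell by 0.33 (-0.06 as the mean of its probe sets, adjusted p = 0.708). Osr1, an early lung mesoderm factor, read 6.95 and 6.91 at E16, against 8.35 and 8.19 at E14. Of the T-box factors of lung mesoderm, Tbx5 was lower by 0.44, and Tbx4 had a difference of -0.06 and did not pass. Tcf21, a factor of distal mesenchyme and lipofibroblasts, read 12.60 and 12.54 at E16, against 11.70 and 11.83 at E14, and rose by 0.80. Of 33 guidance molecules 12 were lower (6 without E16 replicate 1 and 5 without E14 replicate 1) and 5 higher (1 without E16 replicate 1, 3 without E16 replicate 2 and 2 without E14 replicate 1). The semaphorin Sema3d read 7.40 and 7.61 at E16, against 8.60 and 8.53 at E14, and the netrin Ntn1 read 7.34 and 6.83 at E16, against 8.30 and 7.99 at E14. Calls were lost without E16 replicate 1 or E14 replicate 1 for Klf2, Hoxa5 and Tbx5, and without E16 replicate 1, E14 replicate 1 or E14 replicate 2 for Nkx2-5. The difference in Nkx2-5 was 0.31 without E16 replicate 1 and 0.93 without E16 replicate 2.

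Of 31 genes of elastic fibres and matrix 14 were higher and 6 lower (3 without E16 replicate 1, 3 without E14 replicate 1 and 3 without E14 replicate 2). Eln, elastin, read 11.27 and 11.35 at E16, against 10.02 and 10.35 at E14, with a difference of 1.13 (SE 0.18, adjusted p = 0.00106). The microfibril protein Mfap4 read 12.95 and 12.96 at E16, against 11.29 and 11.71 at E14, and Fbln5, which assembles elastic fibres, read 10.10 and 9.74 at E16, against 8.92 and 9.09 at E14. Spon1, a secreted matrix protein, rose by 1.94, Mgp by 1.47 and periostin, Postn, by 1.36. Thbs1, thrombospondin, read 9.5 and 9.64 at E16, against 10.86 and 11.10 at E14, and the proteoglycan Lum read 9.35 and 8.83 at E16, against 10.49 and 10.35 at E14. Both fell. Of 34 collagens and laminins 9 were higher (4 without E16 replicate 1 and 5 without E14 replicate 1) and 6 lower (3 without E16 replicate 1, 3 without E16 replicate 2 and 2 without E14 replicate 1). The basement membrane chains Col4a3 and Lama3 rose by 0.86 and 0.78, and the fibrillar collagens Col11a1 and Col1a1 fell by 1.14 and 0.60. The test was not passed without E16 replicate 1, E16 replicate 2 or E14 replicate 1 for Col1a1.

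Of 20 genes of lipofibroblasts and PDGF signalling 9 were higher and 3 lower (1 without E16 replicate 1, 1 without E14 replicate 1 and 1 without E14 replicate 2). G0s2, an inhibitor of lipolysis, read 11.11 and 10.70 at E16, against 7.60 and 8.28 at E14, with a difference of 2.97 (SE 0.19, adjusted p = 5.76e-07). Plin2, which coats lipid droplets, read 11.50 and 11.49 at E16, against 10.83 and 10.87 at E14, and Pparg, a regulator of lipid storage, read 6.46 and 6.65 at E16, against 5.67 and 5.42 at E14. Fabp4, a fatty acid binding protein also of endothelium, read 7.92 and 5.91 at E16, against 4.80 and 4.73 at E14, with E16 replicate 1 well above E16 replicate 2. The ligand Pdgfa rose by 0.49, its receptor Pdgfra had a difference of 0.23 and did not pass, and Pdgfc fell by 1.05. An adjusted p over 0.05 was found without E16 replicate 1 for Pdgfa. Without E16 replicate 1 the difference was 1.15 in Fabp4.

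Of 23 smooth muscle genes 4 were lower (2 without E16 replicate 1) and 2 higher (0 without E14 replicate 1 and 1 without E14 replicate 2). Over the 10427 genes with a mean above 7, 16.6% were lower and 12.7% higher. The higher smooth muscle genes were Hhip and Pln, and Pln is also on the heart list. Actg2, an actin of visceral smooth muscle, read 9.27 and 9.51 at E16, against 10.69 and 10.85 at E14, and the regulator Myocd read 7.64 and 7.64 at E16, against 8.71 and 8.42 at E14. Acta2, the usual smooth muscle actin, read 12.99 and 13.04 at E16, against 12.99 and 13.06 at E14, and did not pass. Of 15 mesothelial genes 6 were lower and 2 higher. Bnc1 read 5.21 and 5.44 at E16, against 6.55 and 6.48 at E14, and Wt1 fell by 0.90, while Msln, mesothelin, read 7.48 and 7.18 at E16, against 4.72 and 4.88 at E14, and rose by 2.53. The call was lost without E14 replicate 1 or E14 replicate 2 for Pln, and without E16 replicate 1 or E14 replicate 2 for Wt1. Without E16 replicate 1 the difference was 1.19 in Pln. Without E16 replicate 2 the difference was 4.63 in Pln.

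Of 45 endothelial and angiogenic genes 13 were higher (8 without E14 replicate 1) and 2 lower (1 without E16 replicate 1 and 1 without E14 replicate 1), with a median of 0.18. Calcrl, the adrenomedullin receptor, read 9.88 and 9.5 at E16, against 7.85 and 8.21 at E14. Clec14a and Pecam1, both of endothelial cells in general, rose by 0.90 and 0.74. Cdh5 and Kdr, which are as general, had differences of 0.08 and 0.17 and did not pass. Aqp1, a water channel of capillaries, read 9.97 and 9.63 at E16, against 8.30 and 8.73 at E14.

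Of 39 DNA replication genes 15 were lower (4 without E16 replicate 1, 3 without E14 replicate 1 and 6 without E14 replicate 2) and 0 higher (0 at an unadjusted p under 0.05), with a median of -0.33. The origin licensing factor Cdt1 read 9.98 and 10.16 at E16, against 10.94 and 10.64 at E14, and Mcm2 of the helicase fell by 0.46. Pcna, the sliding clamp, read 13.23 and 13.25 at E16, against 13.39 and 13.34 at E14, and did not pass. Of 45 cell cycle genes 10 were lower and 3 higher (1 without E14 replicate 1). Plk1, a mitotic kinase, read 9.31 and 9.5 at E16, against 10.41 and 10.33 at E14, with a difference of -0.97 (SE 0.10, adjusted p = 2.61e-05), and the cyclin Ccnd2 read 11.02 and 11.11 at E16, against 11.91 and 11.70 at E14. Mki67 and Top2a, which mark cycling cells, had differences of -0.01 and -0.03 and did not pass. The inhibitor Cdkn2c read 9.09 and 9.23 at E16, against 8.27 and 8.43 at E14, and rose by 0.81. Calls were lost without E16 replicate 1 or E14 replicate 1 for Cdt1, and without any 1 of the 4 arrays for Mcm2.

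Blood and immune genes gave both directions. The embryonic globin Hbb-y read 10.19 and 11.45 at E16, against 13.87 and 13.79 at E14, and Hbb-bh1 read 6.31 and 6.6 at E16, against 9.01 and 8.51 at E14, although globin genes share sequence and a probe may read several of them. Alas2, the first enzyme of haem synthesis in red cells, read 10.40 and 10.44 at E16, against 8.77 and 9.27 at E14, and rose by 1.40. Of 28 macrophage genes 13 were higher (5 without E16 replicate 1, 6 without E14 replicate 1 and 8 without E14 replicate 2) and 0 lower (0 at an unadjusted p under 0.05). Mpeg1 read 7.99 and 7.92 at E16, against 6.73 and 6.63 at E14, and the protease Ctss 8.52 and 8.36 at E16, against 7.58 and 7.70 at E14, while the general macrophage markers Csf1r and Adgre1 had differences of 0.04 and 0.16 and did not pass. Of 20 neutrophil genes 5 were higher (2 without E16 replicate 1 and 3 without E14 replicate 1) and 0 lower (0 at an unadjusted p under 0.05), among them the calgranulins S100a8, at 8.60 and 8.13 at E16, against 5.90 and 5.28 at E14, and S100a9, at 7.40 and 6.62 at E16, against 5.06 and 4.64 at E14. Of 15 antigen presentation genes 11 were higher (7 without E16 replicate 1 and 6 without E14 replicate 1) and 0 lower (0 at an unadjusted p under 0.05). H2-D1, of class I, read 10.13 and 10.08 at E16, against 9.25 and 9.44 at E14, with close replicates, while H2-Ab1, of class II, read 7.51 and 6.4 at E16, against 5.89 and 5.67 at E14. Without E16 replicate 1 the difference was 0.62 in H2-Ab1.

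Heart muscle genes set the E16 arrays apart. Of 32 on the array 23 were higher at E16 (13 without E16 replicate 1, 6 without E14 replicate 1 and 12 without E14 replicate 2), 6 with only the 4 arrays of E16 and E14 in the fit and 4 without moderation of the variances, and 0 lower (0 at an unadjusted p under 0.05), and over the list E16 replicate 1 exceeded E16 replicate 2 by a median of 2.53. Myl2, the ventricular myosin light chain, read 12.63 and 8.84 at E16, against 4.65 and 4.92 at E14. Myh7, the beta myosin heavy chain, read 10.99 and 8.18 at E16, against 5.23 and 6.79 at E14. Nppa, the atrial natriuretic peptide, read 10.46 and 5.55 at E16, against 4.53 and 4.40 at E14. In each, E16 replicate 2 lay far below E16 replicate 1 and above both E14 arrays. Ttn, titin, read 10.17 and 7.08 at E16, against 4.88 and 5.55 at E14, and rose in 3 of its 6 probe sets, and Tnnt2, cardiac troponin T, read 11.22 and 8.46 at E16, against 6.23 and 6.75 at E14. The summed level of the list on the log2 scale was 15.23 and 12.96 at E16, against 12.23 and 12.35 at E14. Its median difference was 1.79, and 0.60 without E16 replicate 1. Of 23 skeletal muscle genes 1 was higher (0 without E16 replicate 1, 3 without E16 replicate 2 and 0 without E14 replicate 1), Ckm, which is also on the heart list, and the regulator Myod1 read 5.64 and 5.68 at E16, against 5.65 and 5.73 at E14. Of 19 lymphocyte genes, 17 of them below the level of 7, 5 were higher (3 without E16 replicate 1, 3 without E14 replicate 1 and 3 without E14 replicate 2) and 0 lower (0 at an unadjusted p under 0.05), and E16 replicate 1 exceeded E16 replicate 2 by a median of 0.18. Their E16 arrays lay furthest apart in Cd3g, at 6.23 and 4.04 at E16, against 3.70 and 3.76 at E14, and Rag1, at 5.80 and 3.23 at E16, against 3.20 and 3.36 at E14. Of 11 thymus genes 1 was higher (0 without E16 replicate 1, 3 without E16 replicate 2, 0 without E14 replicate 1 and 0 without E14 replicate 2) and 1 lower (0 without E16 replicate 1 and 0 without E14 replicate 1), with a median gap between the E16 arrays of 0.26. The part of heart RNA in the other results was not tested. The test was not passed without E16 replicate 1, E14 replicate 1 or E14 replicate 2 for Nppa, Ckm and Cd3g. A difference passed without E16 replicate 2 for Rag1. Without E16 replicate 1 the difference was 2.17 in Myh7, 1.86 in Ttn and 1.96 in Tnnt2. In that setting it was 1.09 in Nppa, 0.52 in Ckm and 0.31 in Cd3g. Without E16 replicate 2 the difference was 5.99 in Nppa, 3.11 in Ckm and 2.51 in Cd3g.

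Of the 12 genes furthest apart with E16 replicate 1 higher, 11 are heart muscle genes and the other is Scgb1a1. With Nppa, Myl2, Ttn, Myh7 and Tnnt2 these were Pln, Mb, Actn2, Tnni1, Myl3 and Tnni3. Pln read 9.90 and 6.45 at E16, against 5.26 and 5.27 at E14, and Actn2 9.16 and 6.24 at E16, against 5.54 and 5.59 at E14. Tnni1 read 11.08 and 8.16 at E16, against 7.22 and 7.35 at E14, and Tnni3 9.59 and 6.91 at E16, against 5.59 and 6.13 at E14. Mb, myoglobin, read 9.38 and 6.30 at E16, against 5.90 and 5.92 at E14, and Myl3, another myosin light chain, 9.87 and 7.11 at E16, against 6.87 and 6.72 at E14, and neither passed. With E16 replicate 2 higher, the gaps were smaller. Tmem14c, a haem synthesis transporter, read 8.06 and 9.46 at E16, against 8.06 and 8.97 at E14, and the histone H3c4 read 5.79 and 6.92 at E16, against 7.82 and 7.53 at E14. The others in that direction were Hbb-y, Hba-x, Otub1, Cym, Rab26os, Ppp1r10, Ubqln2, Scyl2, Oas1b and Mmrn1. An adjusted p over 0.05 was found without E14 replicate 1 or E14 replicate 2 for Actn2 and Tnni1, and without E14 replicate 1 for Tnni3, and without E16 replicate 1 or E14 replicate 1 for Rab26os and Scyl2, and without E16 replicate 1 or E14 replicate 2 for Ppp1r10. A difference passed without E16 replicate 2 for Mb and Myl3, and without E16 replicate 1 for Oas1b. Without E16 replicate 1 the difference was 0.67 in Actn2, 0.88 in Tnni1, 1.05 in Tnni3, -0.75 in H3c4 and -0.29 in Ppp1r10. Without E16 replicate 2 the difference was 3.59 in Actn2, 3.79 in Tnni1, 3.73 in Tnni3 and -0.87 in Ppp1r10.

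Among the 258 genes past the difference of 1.2, 25 lay more than 1 apart between the E16 arrays, and 17 of the 25 were heart muscle genes. Without E16 replicate 1, 170 of the 208 higher genes and 42 of the 50 lower genes kept the call, and 6 of the 17 heart muscle genes did. Without E16 replicate 2, 206 and 43 kept it. Without E14 replicate 1, 162 and 36 kept it, and without E14 replicate 2, 194 and 47. In these 4 settings 0 of the 258 changed direction.

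**Figure D3:**
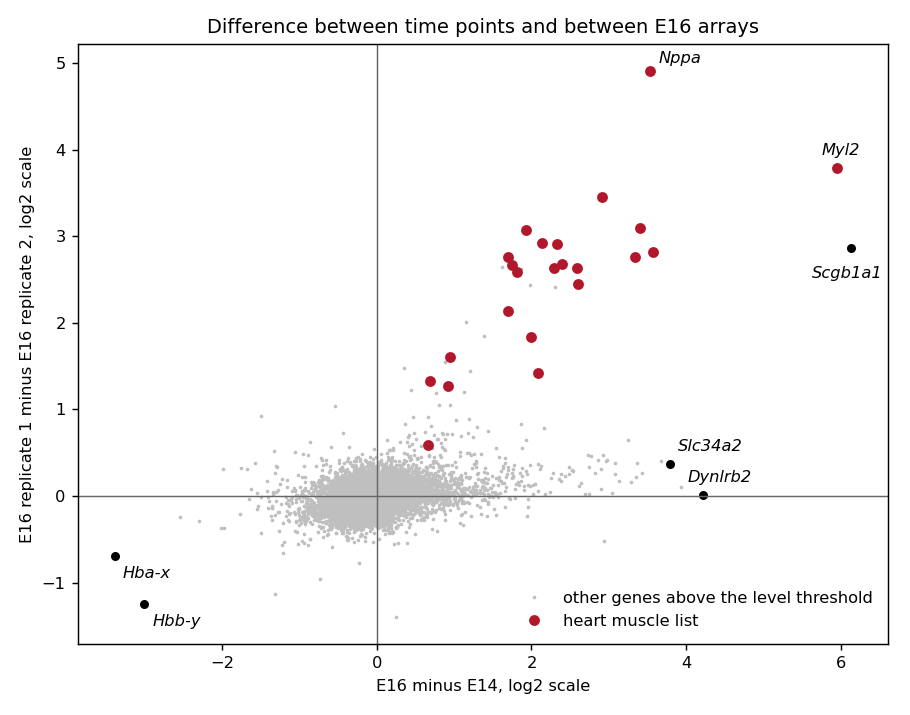
Each of 10427 genes by its difference between time points (E16 minus E14, horizontal axis, log2 scale) and between the E16 arrays (replicate 1 minus replicate 2, vertical axis, log2 scale), with heart muscle genes in red. Slc34a2 and Dynlrb2 lay to the right with a small gap between arrays, at differences of 3.79 and 4.22, and Nppa and Myl2 lay high.

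The called genes were also read at E18 and E12. This is a description and not an independent test. The variance was fitted to all 14 arrays, and each probe set was chosen by its mean over them. The interval from E12 to E18 also spans the step from E14 to E16. E18 against E12 shares no array with E16 against E14, and there 33.6% of the 10427 genes were higher and 40.9% lower. Of the 208 genes that rose by more than 1.2 at E16, 198 were higher at E18 than at E12 and 2 were lower. Of the 50 that fell, 0 were higher and 49 lower. Slc34a2 read 13.69 and 13.61 at E18, and Ager read 14.11 and 14.16, both above their E16 values. Dynlrb2 read 10.52 and 10.66 at E18, while Deup1 of the deuterosome read 7.52 and 8.0, below its E16 values. Rspo2 read 6.25 and 6.0 at E18 and 10.06 and 10.32 at E12. The heart muscle genes Myl2 and Nppa read 4.83 and 4.84 and 4.67 and 4.92 at E18, close to their E14 values, while Myh7 read 9.90 and 9.76 and Ttn 8.25 and 8.53 at E18. Of the 23 heart muscle genes higher at E16, 15 were higher at E18 than at E12 and 1 was lower.

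**Figure D4:**
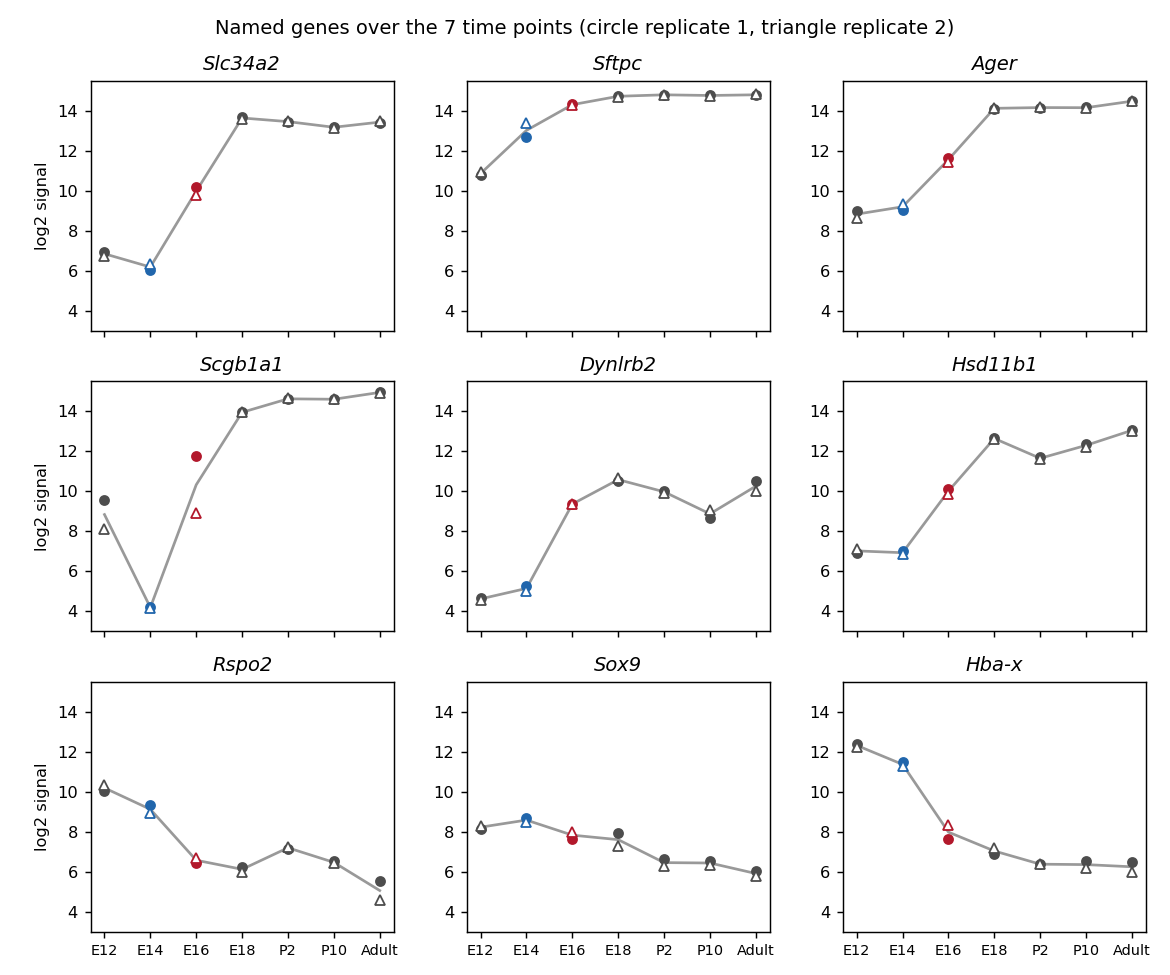
Log2 signal (vertical axis) of 9 genes on all 14 arrays, in the order E12, E14, E16, E18, P2, P10 and Adult (P, postnatal day), with replicate 1 as filled circles, replicate 2 as open triangles, E16 in red, E14 in blue and a line through the means. Scgb1a1 had its lowest values at E14, 4.21 and 4.19, Slc34a2 reached 13.69 and 13.61 at E18, and Hba-x was lower at E16, with 7.64 and 8.33, than at E14.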

How the data were processed

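Whole-lung RNA from pooled ICR mice was extracted with Trizol and hybridised to 1-colour Affymetrix whole-genome mouse arrays. The deposited values are log2 signals that the authors made in Partek 6.4. Their methods name Robust Multichip Average and the submitters' processing notes name GCRMA, and which of these made the values was not settled. Both include quantile normalization across arrays, so a change in total RNA is not seen. No detection calls were used here, and the number of arrays limits the precision.

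Values were used as deposited. Of 45101 probe sets 64 Affymetrix controls were left out. Of the rest 34945 had 1 gene symbol, 932 several and 9160 none in the platform annotation, and only the first were named. Means of the 7 time points were fitted to all 14 arrays with limma 3.58.1 in R 4.3.3, the contrast E16 minus E14 was tested with eBayes, and p-values were adjusted by Benjamini-Hochberg over 45037 probe sets. The fit was tested on simulated data.

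Genes named are the 20 largest rises and falls, the 12 furthest apart between E16 arrays in each direction, and members of gene lists with the largest changes or that define the list. The comparison, members and lists were chosen with earlier results of these data known. Alternatives were other scalings, thresholds and probe set rules, a level filter before the fit, a fit of only the 4 arrays of E16 and E14, no moderation, a variance trend, a replicate block and each array left out.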

Additional observations from a re-analysis of the deposited data

How the results depend on the processing

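Leaving out an array of E16 or E14 leaves 1 in that time point, which is then assumed to vary like the others. With 1 of the 14 arrays left out in turn, genes higher by adjusted p ranged from 757 to 1360 and genes lower from 739 to 1845. With the difference above 1.2 they ranged from 167 to 261 and 39 to 64, and probe sets from 255 to 399 higher and 91 to 140 lower. The lowest gene counts by adjusted p came without E14 replicate 1. A level above 8 gave 67 lower probe sets. A difference above 1 gave 200 lower probe sets and 93 lower genes, and a difference above 2 gave 106 higher and 13 lower probe sets and 63 higher and 5 lower genes, since fewer features pass a larger difference.

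Of called genes, 43.2% were higher as deposited, 53.8% after quantile normalization and 40.4% after median centring (1264 higher and 1862 lower), with median differences over tested genes of -0.05, 0.0035 and -0.06. Deviations of same-numbered E16 and E14 arrays correlated at -0.00458. Over 21 pairs of time points the correlation ran from -0.308 to 0.129, with 4 above 0.1. These values do not show whether same-numbered arrays shared a batch or a pool. With the replicate number as a block, 1244 genes were higher and 1589 lower, and 210 and 50 with the difference above 1.2.

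Read as the mean of all its probe sets, Id2 had a difference of -0.0187 (adjusted p = 0.931) in place of the rise, and the calls of Hoxa5, Ddc and Shh were lost at differences of -0.06, 0.08 and 0.24. Of 198 called genes among the 242 named, 47 lost the call in at least 1 setting, and apart from Id2 no named gene that was called changed direction. Calls were lost in 17 named genes with only the 4 arrays of E16 and E14 and in 32 without moderation of the variances.

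List counts of at least 4 also moved by more than 1.5 times in settings other than a left-out E16 or E14 array. With only the 4 arrays of E16 and E14 there were 2 Notch signalling genes higher in place of 6, 3 lymphocyte genes higher in place of 5, 6 heart muscle genes higher in place of 23 and 7 smooth muscle genes lower in place of 4. Without moderation there were 3 glycolysis and hypoxia genes higher in place of 5, 3 Notch signalling genes higher in place of 6, 7 macrophage genes higher in place of 13, 3 neutrophil genes higher in place of 5, 3 lymphocyte genes higher in place of 5, 2 complement genes higher in place of 6, 4 heart muscle genes higher in place of 23, 1 lung epithelial factor gene lower in place of 4, 6 hedgehog signalling genes lower in place of 10, 2 smooth muscle genes lower in place of 4, 8 DNA replication genes lower in place of 15 and 3 cartilage genes lower in place of 5. With a variance trend there were 7 smooth muscle genes lower in place of 4. After quantile normalization there were 3 lymphocyte genes higher in place of 5 and 2 lung epithelial factor genes lower in place of 4. With the level filter before the fit, which leaves fewer members tested, there were 9 ciliated cell genes higher in place of 17, 3 neutrophil genes higher in place of 5, 1 lymphocyte gene higher in place of 5, 3 chemokine genes higher in place of 5 and 7 smooth muscle genes lower in place of 4. With the mean of all probe sets there were 5 TGF-beta and BMP signalling genes higher in place of 8, 11 TGF-beta and BMP signalling genes lower in place of 4 and 8 IGF and imprinted growth genes lower in place of 4. Without 1 adult array, whichever was left out, there were 8 smooth muscle genes lower in place of 4. Without 1 P2 array, whichever was left out, there were 3 lymphocyte genes higher in place of 5. Without 1 P10 array, whichever was left out, there were 3 lymphocyte genes higher in place of 5.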
